A study of Mus musculus with 6 samples.

Results

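The colony stimulating factor receptors and FLT3, with the ligand Csf1, were examined in RNA-seq libraries of mouse cells given DB2313. They were chosen by name, as the rows of the count table whose gene symbol was Csf1, Csf1r, Csf2ra, Csf2rb, Csf2rb2, Csf3r, Flt3 or Il3ra. These were 8 of the 54532 genes counted, and all 8 were among the 14174 genes that passed the filter on low counts. The series held 6 libraries of cells labelled dendritic cell, 3 untreated (control) and 3 treated with DB2313, a small molecule used in the study to block the transcription factor PU.1, the product of Spi1. All cells were kept in the same serum-containing medium, and strain, dose and time were not given in the labels. Its publication described macrophages, not dendritic cells. It gave a dose of DB2313 for macrophages and a time for monocytes grown with a colony stimulating factor, but did not say which applied to these libraries. In the count table the treated columns were headed by Spi1, and every direction below rests on reading them as DB2313.

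These receptors carry the signals by which myeloid cells survive, divide and mature. The receptor for GM-CSF (granulocyte-macrophage colony-stimulating factor), which is the usual growth factor for dendritic cells in culture, is made of an alpha chain, Csf2ra, and a beta chain, Csf2rb, that carries the kinase JAK2. The same beta chain serves the IL-3 receptor, whose alpha chain is Il3ra, and mice have a further copy of it, Csf2rb2, that pairs with Il3ra. Csf3r, the receptor for G-CSF, is known from neutrophils. Csf1r and Flt3 are receptor tyrosine kinases, of which the first maintains macrophages and the second drives the formation of dendritic cells from progenitors. PU.1 is known to act on the genes of several of these receptors.

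Total counts per library ranged from 16146743 to 19764677. The 8 genes together took 0.408% to 0.434% of each control library and 0.345% to 0.396% of each DB2313 library. Replicates differed by more than sampling noise, with a chi-square per degree of freedom of 4.77 to 5.28 between control libraries and 7.43 to 17.7 between DB2313 libraries, the highest between DB2313 replicates 1 and 3. Mitochondrial genes took 2.06% to 2.41% of the counts in control and 1.46% to 1.57% with DB2313, so this share separated the groups, and its part in the results was not tested. Nothing in the labels said that the libraries came from separate cultures or animals, so the p-values measure the spread between these libraries. Some genes of the list for conventional dendritic cells were present in control. Cd74 was at 6557 CPM (counts of a library scaled by TMM to a common total), H2-Ab1 at 1310 CPM and Zbtb46 at 85.0 CPM. Others on that list were low, with Xcr1 at 1.04 CPM, Clec9a at 0.769 CPM and Cd209a at 0.0209 CPM. Macrophage genes (Adgre1, 195 CPM), neutrophil genes (S100a9, 1158 CPM) and basophil genes (Mcpt8, 618 CPM) were present too. These genes were picked from the marker lists after their values were seen.

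Of the 8 genes, 3 were lower with DB2313 and 0 were higher at an adjusted p under 0.05 in edgeR's quasi-likelihood test. They were Csf2rb2, Csf3r and Csf1r, whose means were 74.2%, 75.4% and 81.5% of control. Over all genes tested, 5.94% were lower, 4.66% were higher and 10.6% were called in either direction. With limma-voom and with DESeq2 the count of higher members was 0 as well, and 4 of the 8, all at lower levels with DB2313, had an unadjusted edgeR p under 0.05, against 23.3% of all genes. The median log2 fold change of the 8 genes was -0.18, against 8.2e-04 over all genes tested. Without control replicate 1, and likewise without DB2313 replicate 2, only 1 of the 8, Csf2rb2, was called. Without DB2313 replicate 3 there were 4, since Csf2rb was then called too. Because these are bulk libraries, fewer cells of a type and less RNA per cell cannot be told apart.

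**Figure D1:**
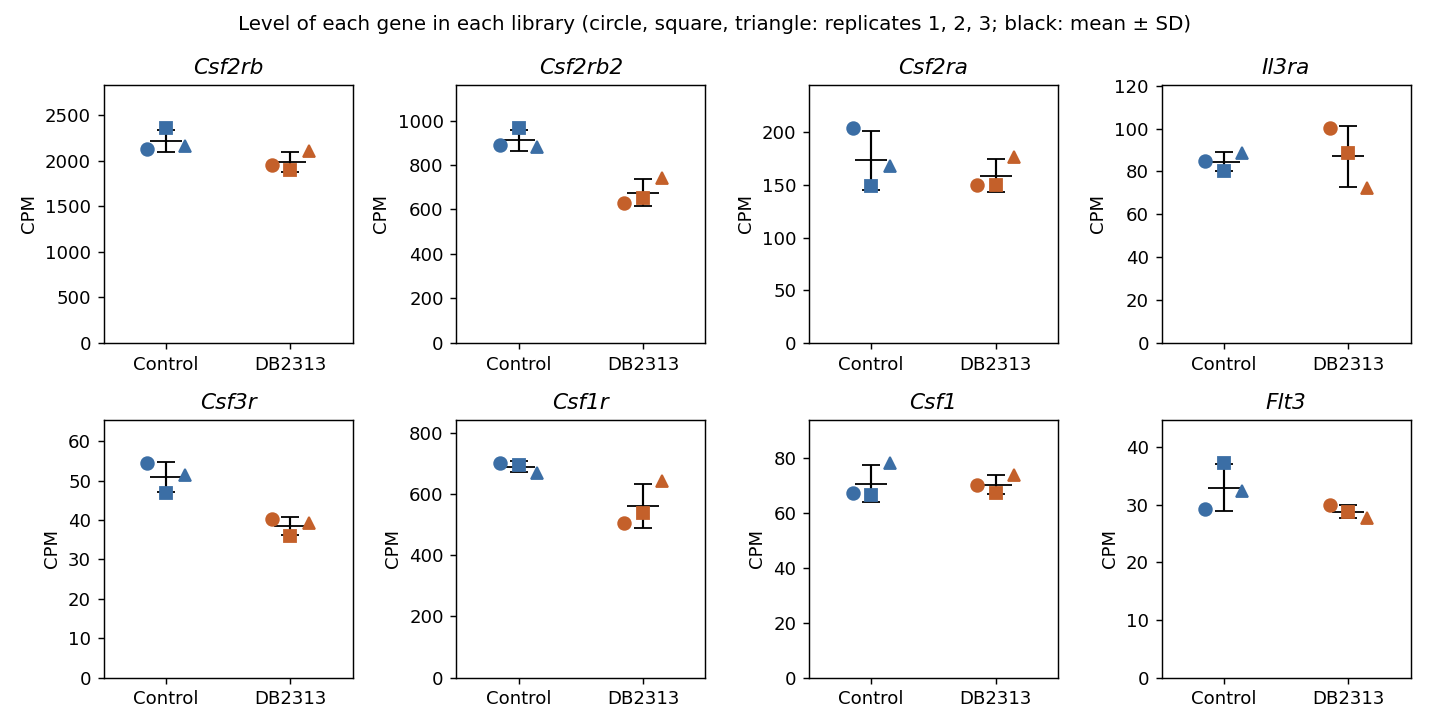
Level of each of the 8 genes in CPM (vertical axes, each from 0) in the 3 control and 3 DB2313 libraries, with symbols for replicates 1 to 3 and black bars for the mean ± SD. The DB2313 libraries lie below the control libraries for Csf2rb, Csf2rb2, Csf3r and Csf1r, and the groups overlap for Csf2ra, Il3ra, Csf1 and Flt3.

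The beta chain genes were the most abundant of the 8. Csf2rb2 (ENSMUSG00000071714) and Csf2rb (ENSMUSG00000071713) lie head to head on chromosome 15 (GRCm38), the first on the minus strand from 78282507 to 78305721 and the second on the plus strand from 78325752 to 78353847, with 20030 bases between them. Their longest coding sequences, of 2634 and 2688 bases, were identical at 95.2% of 2628 aligned bases. The stretch of 120 aligned bases within 1 exon that differed most, with 16 different bases, is shown to let the copies be compared, with differing bases in capitals. It lies in exon 4 of both transcripts, at chr15:78338867-78338986 on the plus strand for Csf2rb and at chr15:78294345-78294464 on the minus strand for Csf2rb2 (GENCODE M21, GRCm38, 5′ to 3′ as transcribed).
Csf2rb: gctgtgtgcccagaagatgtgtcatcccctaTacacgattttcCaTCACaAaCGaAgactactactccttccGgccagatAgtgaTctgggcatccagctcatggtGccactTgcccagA
Csf2rb2: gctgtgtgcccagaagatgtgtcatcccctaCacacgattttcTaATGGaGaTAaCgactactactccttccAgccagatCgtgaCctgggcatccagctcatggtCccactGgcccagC
Of all windows of 50 bases in the longest-coding Csf2rb transcript, 18.9% also occurred in that of Csf2rb2, and of windows of 100 and 150 bases 7.16% and 3.58% did. Neither the read length nor the rule for reads that match both copies was stated, so a share of the reads could have been counted for either copy or for neither.

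Csf2rb2, the beta chain that pairs with Il3ra, had the lowest log2 fold change of the 8, with that of Csf3r within its error. It was at 889, 967 and 880 CPM in control replicates 1 to 3 and at 631, 654 and 743 CPM in DB2313 replicates 1 to 3. The groups did not overlap, and the highest DB2313 library, replicate 3, stayed well below the lowest control library. Of all genes tested, 27.4% had groups that did not overlap. The mean fell from 912 ± 47.9 to 676 ± 59.4 CPM (SD, n = 3 each), which was -0.43 ± 0.08 (SE) as a log2 fold change (edgeR adjusted p of 0.00169). In each of the 6 fits that left out 1 library Csf2rb2 was called lower, with a log2 fold change between -0.50 and -0.38.

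Csf2rb, the beta chain shared by the GM-CSF and IL-3 receptors, moved less. It was at 2130.3, 2363 and 2165 CPM in control and at 1957, 1897 and 2106 CPM with DB2313. The groups were close but did not overlap, with the highest DB2313 library just under the lowest control library. The log2 fold change was -0.16 ± 0.07 (SE, 95% interval -0.31 to -0.013), and the edgeR adjusted p of 0.171 did not pass. When the counts of both copies were summed to avoid the choice between them, from 42619 to 53082 reads per library, the log2 fold change was -0.23 ± 0.07 (SE), with 0.0495 as its edgeR adjusted p. This sum includes Csf2rb2, which was called by itself, so it cannot show a fall of Csf2rb alone.

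The ratio of Csf2rb2 to Csf2rb, each per kilobase of gene length, was 0.640, 0.628 and 0.624 in the control libraries and 0.495, 0.529 and 0.542 in the DB2313 libraries. The control libraries lay close together and above each DB2313 library. The length used for Csf2rb, 7277 bases, was greater than that of its longest-coding transcript, 4764 bases, while for Csf2rb2 both were 4740. The size of the ratio thus depends on the length chosen, but the difference between the groups does not. The mean log2 ratio differed by -0.27 (DB2313 minus control). With 3 libraries on each side, an exact permutation test (two-sided) gave p = 0.1, which is the smallest it can give, and 0.3 after Benjamini-Hochberg adjustment over the 3 ratios computed.

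**Figure D2:**
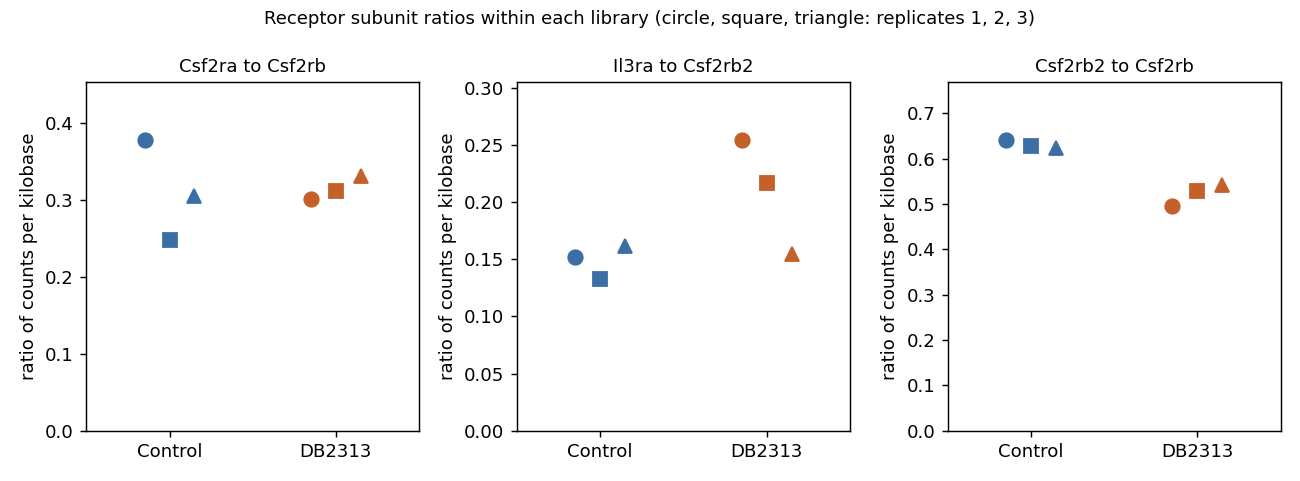
Ratios of counts per kilobase (vertical axes, from 0) between receptor subunits in each library, with symbols for replicates 1 to 3. The ratio of Csf2rb2 to Csf2rb separates the groups (0.624 to 0.640 in control, 0.495 to 0.542 with DB2313), while those of Csf2ra to Csf2rb and of Il3ra to Csf2rb2 overlap.

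The alpha chains, which give the receptors their ligand, did not pass the test. Csf2ra (ENSMUSG00000059326, chromosome 19, 61224402 to 61228418, minus strand), the GM-CSF-binding chain, was at 204, 149 and 168 CPM in control and at 149.8, 149.9 and 177 CPM with DB2313. Control replicate 1 stood above the other 5 libraries, and the groups overlapped. The log2 fold change was -0.13 (95% interval -0.35 to 0.092) with an edgeR adjusted p of 0.510, and it was 0.0051 without control replicate 1. Il3ra (ENSMUSG00000068758, chromosome 14, 14346275 to 14356011, plus strand), the IL-3-binding chain, was at 84.7, 80.2 and 88.8 CPM in control and at 100.3, 88.8 and 72.1 CPM with DB2313. The DB2313 libraries held both the highest and the lowest value. Its log2 fold change was 0.042 (95% interval -0.18 to 0.26) with an edgeR adjusted p of 0.858, and it was -0.068 without DB2313 replicate 1. The summed level of 11 mast cell and basophil genes, cells known to carry the IL-3 receptor, was 2521, 2626 and 2721 CPM in control replicates 1 to 3 and 3079, 2944 and 2570 CPM in DB2313 replicates 1 to 3. Its order over the libraries was that of Il3ra within DB2313 but not within control, and the summed neutrophil, dendritic cell, T cell and B cell lists fell in that order within DB2313 too. Of the 9 of these 11 genes that were tested, 2 were higher, Fcer1a and Hdc (named after their values were seen), and 0 lower. Over all genes 4.66% were higher and 5.94% lower, so in so short a list the 0 is no result. Prss34 alone made up 46.7% of the summed level of the 11 genes. Their part in the level of Il3ra was not tested.

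Relative to its beta chain, Csf2ra was at 0.310 ± 0.0646 per kilobase in control and 0.314 ± 0.0146 with DB2313 (SD, n = 3 each, exact permutation p = 0.8). The size of these values depends on the length used for Csf2rb as well. The ratio of Il3ra to Csf2rb2 was 0.152, 0.132 and 0.161 in control and 0.254, 0.217 and 0.155 with DB2313. DB2313 replicate 3 fell within the control range, whereas the other two treated libraries were above it (exact permutation p = 0.2, adjusted 0.3).

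Csf3r, the receptor for G-CSF, was lower with DB2313. Csf3r (ENSMUSG00000028859, chromosome 4, 126024550 to 126044440, plus strand) was at 54.5, 46.9 and 51.4 CPM in control and at 40.2, 36.0 and 39.2 CPM with DB2313, from 652 to 887 reads per library. All treated libraries lay below all control libraries. The mean fell from 51.0 ± 3.83 to 38.4 ± 2.21 CPM (SD, n = 3 each), a log2 fold change of -0.41 ± 0.09 (SE, edgeR adjusted p of 0.00863). Without control replicate 1 the edgeR adjusted p was 0.0604, and without DB2313 replicate 2 it was 0.0734, at log2 fold changes of -0.36 in both fits. A list of 15 other neutrophil genes summed to 5335 to 5880 CPM in control and to 5716 to 7207 CPM with DB2313. Among them 4 were higher (Mmp8, Elane, Ly6g and Retnlg, named after their values were seen), beside 4.66% of all genes. For lower genes the count was 0, beside 5.94% of all genes. In a list of this length that 0 is no result about neutrophil genes. Each of the 15 exceeded 10 CPM on average. Their part in the Csf3r result was not tested.

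Csf1r, the receptor that maintains macrophages, was lower in all treated libraries, by an amount that differed among them. Csf1r (ENSMUSG00000024621, chromosome 18, 61105572 to 61132149, plus strand) was at 703, 695 and 669 CPM in control and at 505, 539 and 642 CPM with DB2313. DB2313 replicate 3 came close to the lowest control library, and replicates 1 and 2 were far below it. The mean went from 689 ± 17.6 to 562 ± 71.7 CPM (SD, n = 3 each), and the log2 fold change was -0.29 ± 0.08 (SE, edgeR adjusted p of 0.0324). This call was lost in 5 of the 6 fits that left out 1 library, where the edgeR adjusted p was 0.133, 0.129 and 0.0858 when control replicates 1, 2 and 3 were omitted and 0.0552 and 0.179 when DB2313 replicates 1 and 2 were. Without DB2313 replicate 3 the log2 fold change was -0.40 and the edgeR adjusted p was 7.7e-05. Hmgxb3 overlaps Csf1r on the other strand, with 414 to 518 reads per library against 8311 to 11431 for Csf1r, and the strandedness of the libraries was not stated. Of 14 other macrophage genes, 3 were higher and 6 were lower, beside 4.66% and 5.94% of all genes. These 14 summed to 2409 to 2627 CPM in control and 2253 to 2658 CPM with DB2313, 47.2% of it from Gpnmb alone. The sum thus says little about the other genes of the list. Their part in the Csf1r result was not tested.

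Csf1, the ligand of that receptor, did not pass the test. Csf1 (ENSMUSG00000014599, chromosome 3, 107741048 to 107760469, minus strand) was at 67.0, 66.2 and 78.2 CPM in control and at 69.9, 67.0 and 73.8 CPM with DB2313. Its log2 fold change was -0.0053 (95% interval -0.19 to 0.18, edgeR adjusted p of 0.980). The sign of this value turned with the scaling used, so no direction is given.

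Flt3, the receptor for FLT3 ligand, was the least abundant of the 8 and did not pass. Flt3 (ENSMUSG00000042817, chromosome 5, 147330741 to 147400489, minus strand) was at 29.3, 37.3 and 32.4 CPM in control and at 29.9, 28.8 and 27.6 CPM with DB2313. Control replicate 1 lay within the range of the treated libraries, and control replicates 2 and 3 lay above it. The log2 fold change was -0.20 ± 0.10 (SE, 95% interval -0.42 to 0.027) with an edgeR adjusted p of 0.283. In 15 other genes of conventional dendritic cells, 1 was higher (Clec9a) and 2 were lower (Itgax and Batf3, all 3 named after their values were seen). Over all genes 4.66% were higher and 5.94% lower. The list summed to 15292 to 16136 CPM in control and 12575 to 15450 CPM with DB2313, 42% of it from Cd74. In the list of plasmacytoid dendritic cells, which also carry Flt3, Bst2 (156 CPM in control), Spib (76.2 CPM) and Tcf4 (29.8 CPM) were present, Siglech averaged 0.436 CPM and Klk1 had no reads. These 10 genes summed to 263 to 293 CPM in control and 254 to 281 CPM with DB2313, 59% of it from Bst2. Of the 6 that were tested, 1 was higher, Cd300c, from 0.229 to 1.62 CPM (edgeR adjusted p of 0.00337). It had 2, 2 and 7 reads in the control libraries and 26, 33 and 27 in the DB2313 libraries. The names from this list were also chosen after their values were seen. The part of either list in the level of Flt3 was not tested.

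**Figure D3:**
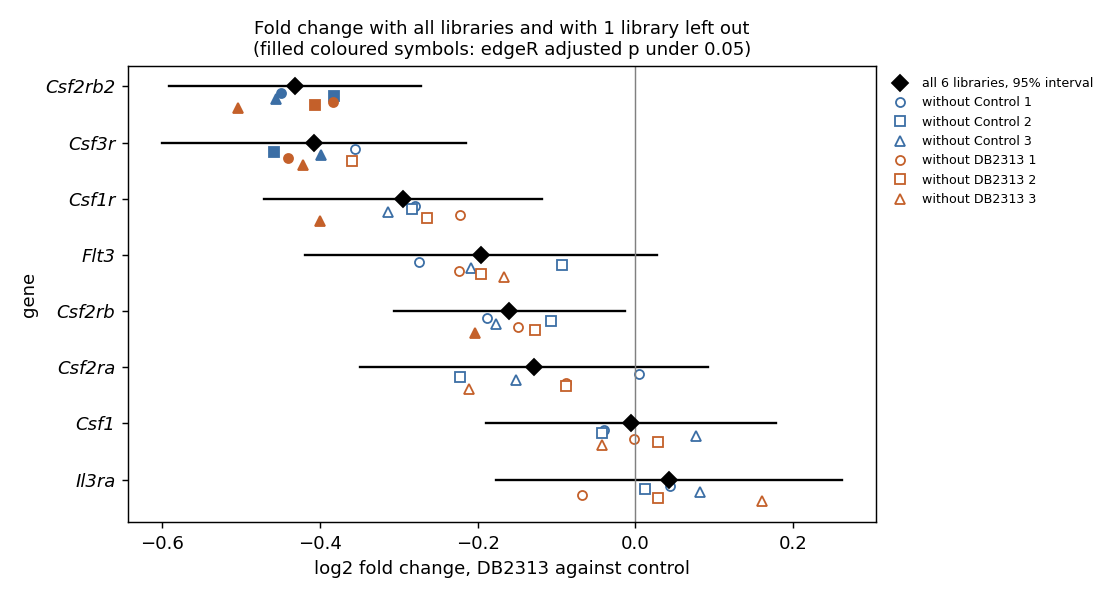
Log2 fold change of DB2313 against control (horizontal axis) for each of the 8 genes, with all libraries (diamonds, lines for the 95% interval) and with 1 library left out (coloured symbols, filled at an edgeR adjusted p under 0.05). Csf2rb2 keeps filled symbols throughout, from -0.50 to -0.38, whereas Csf1r has 1 filled symbol, at -0.40 without DB2313 replicate 3.

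To compare the genes with each other, CPM were divided by the deposited length of each gene in kilobases. For Csf2rb this was 7277 bases, against 4764 for its longest-coding transcript, so its level beside the others depends on that choice. In control, the level per kilobase was 305 ± 17.3 for Csf2rb, 192 ± 10.1 for Csf2rb2, 141 ± 3.60 for Csf1r, 93.8 ± 15.2 for Csf2ra and 28.5 ± 1.46 for Il3ra (SD, n = 3). It was 14.1 ± 1.06 for Csf3r, 13.3 ± 1.26 for Csf1 and 5.34 ± 0.654 for Flt3. The order thus ran from the beta chains through Csf1r and the alpha chains to Csf3r, Csf1 and Flt3, and Csf2rb stood 57.1-fold above Flt3. Of neighbours in this order, Csf3r and Csf1 overlapped in control and could not be placed one above the other. With DB2313 the order was the same except that Csf1 (12.7 to 14.0 CPM per kilobase) lay above Csf3r (9.96 to 11.1), and no neighbours overlapped, although the lowest Csf2rb2 library (133) was close to the highest Csf1r library (132).

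**Figure D4:**
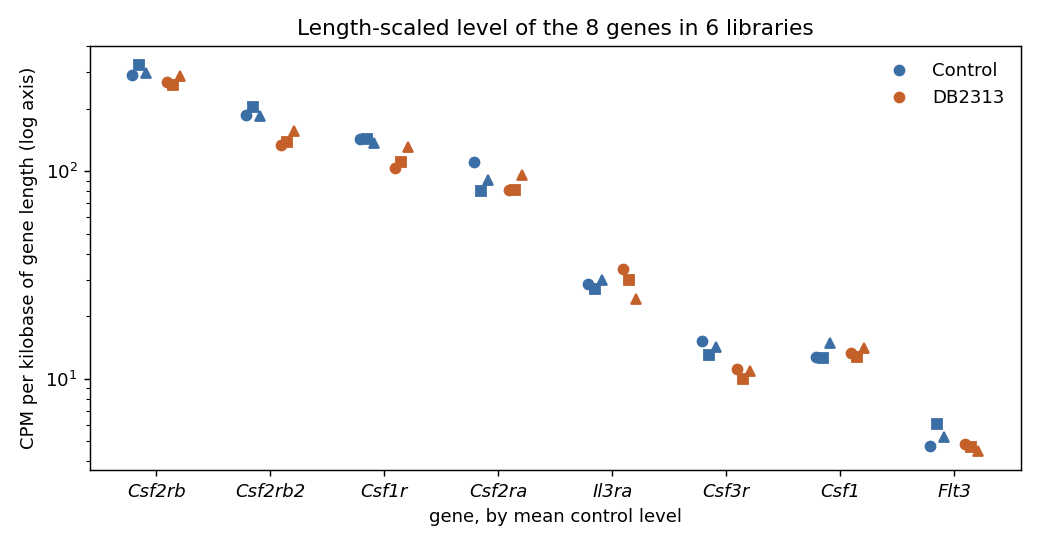
CPM per kilobase of gene length (vertical log axis) for the 8 genes, ordered by their control mean, in each control and DB2313 library, with symbols for replicates 1 to 3. Levels run from about 305 for Csf2rb to 5.34 for Flt3 in control, and Csf3r and Csf1 overlap there.

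Because DB2313 is aimed at PU.1, the promoters were searched for GAGGAA, the core of the usual PU.1 site, on both strands. RefSeq promoters (250 bases before the start to 49 after the start base, GRCm38.p6) were used for 6 of the 8 genes, those other than Csf1r and Csf2rb. GAGGAA was found in those of Csf2ra, Csf2rb2 and Csf3r and not in those of Csf1, Flt3 and Il3ra, while 28.3% of 32851 promoters of the same length held it. The 250 bases before the start of these 3 genes are shown, with GAGGAA or its reverse complement in capitals, because 2 of them, Csf2rb2 and Csf3r, were lower with DB2313 and the third was not called. They are given 5′ to 3′ on the strand of the gene, at chr15:78305722-78305971 (minus), chr4:126024409-126024658 (plus) and chr19:61228419-61228668 (minus).
Csf2rb2: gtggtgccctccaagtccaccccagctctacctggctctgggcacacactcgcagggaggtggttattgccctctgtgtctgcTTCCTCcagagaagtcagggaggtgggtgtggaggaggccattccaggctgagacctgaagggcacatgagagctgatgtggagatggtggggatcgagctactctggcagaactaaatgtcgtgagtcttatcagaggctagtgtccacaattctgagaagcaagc
Csf3r: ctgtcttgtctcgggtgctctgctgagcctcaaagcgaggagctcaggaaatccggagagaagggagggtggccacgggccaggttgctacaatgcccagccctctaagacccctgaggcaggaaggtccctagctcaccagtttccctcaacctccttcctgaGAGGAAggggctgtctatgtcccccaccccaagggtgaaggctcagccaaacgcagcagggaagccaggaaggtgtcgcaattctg
Csf2ra: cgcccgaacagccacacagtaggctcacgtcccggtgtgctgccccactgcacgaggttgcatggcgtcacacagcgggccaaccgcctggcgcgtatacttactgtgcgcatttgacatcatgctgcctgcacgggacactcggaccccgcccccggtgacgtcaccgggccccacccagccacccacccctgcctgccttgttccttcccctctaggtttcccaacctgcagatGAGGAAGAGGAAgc
In Csf3r the match lay at -86 to -81 from the start base (position 0). The RefSeq start of Csf3r lies downstream of the start of the gene as counted (126024550). Part of its window, with the match, therefore falls inside the counted gene. Csf2ra had matches side by side at -14 to -9 and -8 to -3, and 4.82% of promoters held 2 or more. Csf2rb2 had one at -167 to -162 and another at 29 to 34, which overlapped a match to GGAAGT, the general ETS core, at 27 to 32. GGAAGT was also found in the promoters of Flt3 and Il3ra (23.8% of all promoters), ATTGC, a partial C/EBP site, in those of Csf2rb2, Csf3r and Il3ra (26.4%), and TGTGGT, the RUNX core, in none of the 6 (16.8%). These matches describe the letters of the windows and were not tied to binding.

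The rest of the pathways was followed in lists of 134 other genes, written with earlier results of these data known. Of the 127 tested, 10 were higher and 16 were lower with DB2313, which was 20.5% of them, beside 10.6% of all genes. Their median log2 fold change was -0.058. Without DB2313 replicate 2 there were 6 higher and 6 lower, and without DB2313 replicate 3 there were 14 and 26. Leaving out control replicate 1, 2 or 3 gave 8, 7 and 10 lower genes, and 6 higher without control replicate 1 or 2.

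Of 9 other ligand genes of these and related receptors 5 were tested, and 0 passed in edgeR, 0 had an unadjusted p under 0.05, and DESeq2 and limma-voom called 0. The most abundant in control were Pdgfb and Pdgfa, which encode ligands of the PDGF receptors, at 27.6 ± 2.92 and 10.2 ± 1.28 CPM (SD, n = 3, both named after their values were seen). Csf2, which encodes GM-CSF, had 52, 18 and 35 reads in the control libraries and 29, 21 and 19 in the DB2313 libraries. Csf3, Il3 and Il34, which encode G-CSF, IL-3 and a further ligand of the CSF1 receptor, were below the filter. Their highest counts were 13 reads for Csf3 and 12 reads for Il3, both with DB2313, and 1 read for Il34. Flt3l, which encodes FLT3 ligand, had a mean of 5.34 ± 0.285 CPM in control against 6.63 ± 0.519 CPM in the treated libraries (SD, n = 3 each), with groups that did not overlap and an edgeR adjusted p of 0.338.

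Below the beta chain and the G-CSF receptor, 28 signalling genes were tested, of which 2 were higher and 5 lower (median log2 fold change -0.081). Over all genes tested, 4.66% were higher and 5.94% lower. Jak2, the kinase carried by the beta chain, fell from 751 ± 52.2 to 628 ± 22.7 CPM (log2 fold change -0.26 ± 0.07, SE, edgeR adjusted p of 0.0272). Pim1, a kinase gene that cytokine receptors switch on through STAT5, went from 253 ± 7.62 to 191 ± 8.42 CPM (-0.40 ± 0.07, edgeR adjusted p of 0.00127). Mcl1, a survival gene of the BCL-2 family, and Irf4, a transcription factor of dendritic cells grown with GM-CSF, were lower too, by log2 fold changes of -0.27 and -0.43, as was the early response gene Egr1, at -0.55. Id1 was higher, at 0.50, although its groups overlapped. Stat5a and Stat5b, the factors that JAK2 activates, did not pass, with log2 fold changes of 0.13 and 0.061 and edgeR adjusted p of 0.306 and 0.679. The calls of Jak2 and Mcl1 were lost without any 1 of the control libraries or DB2313 replicate 2 (highest edgeR adjusted p of 0.194 and 0.0722), that of Egr1 without control replicate 1 or 2 or DB2313 replicate 2 (0.267), and that of Id1 without any 1 library other than DB2313 replicate 3 (0.211).

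Of 40 genes that act below the receptor tyrosine kinases, all tested, 4 were higher and 4 lower (median -0.056). The shares of all genes tested were 4.66% higher and 5.94% lower. Sla and Shc1, adaptor proteins of receptor and Src family kinases, were higher by log2 fold changes of 0.49 and 0.47. Tyrobp, the adaptor DAP12 through which CSF1R also signals, went from 404 ± 5.31 to 468 ± 16.6 CPM, a log2 fold change of 0.21 ± 0.06 (SE) just inside the threshold (edgeR adjusted p of 0.0494). Dok2, an inhibitory adaptor, and Src, a kinase, were lower by log2 fold changes of -0.37 and -0.32. Sos2, an exchange factor for RAS, and Pik3cd, a catalytic subunit of PI3 kinase, were at -0.32 and -0.24. The calls of Tyrobp, Src and Pik3cd were lost without any 1 of the control libraries or DB2313 replicate 2 (highest edgeR adjusted p of 0.239, 0.134 and 0.154), and that of Sos2 without control replicate 1 or 2 or DB2313 replicate 2 (0.266). With an offset for gene length Tyrobp was at 0.11 (edgeR adjusted p of 0.368).

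Of 14 related receptors tested, 1 was higher and 2 were lower, beside 4.66% and 5.94% of all genes. Il13ra1, a chain of the IL-13 receptor, was higher (log2 fold change 0.46 ± 0.09, SE), whereas Il21r and Il4ra were lower (-0.26 and -0.23). Both of these calls were lost without any 1 of the control libraries or DB2313 replicate 2, with a highest edgeR adjusted p of 0.137 and 0.236. In the list of proteins that cut or turn over receptors (10 tested), 1 was higher and 1 lower, beside the same shares of all genes. These were the protease genes Elane and Adam8, which moved apart. Adam8 fell from 602 ± 13.3 to 430 ± 15.8 CPM (-0.49 ± 0.06, SE, edgeR adjusted p of 1.9e-04), and Elane, a neutrophil granule protease, rose from 27.3 ± 1.28 to 44.1 ± 5.59 CPM (0.69 ± 0.11, SE, edgeR adjusted p of 5.9e-04).

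Transcription factors described as acting on the receptor genes were tested for 31 of 32, and 2 were higher and 5 lower (median -0.023). Among all genes tested, 4.66% were higher and 5.94% lower. Egr2 (-0.67), Zeb2 (-0.48), Irf4 (-0.43) and Ets2 (-0.39, all log2 fold changes) were among those that were lower. Cebpe, a factor of granulocyte maturation, was higher (0.43 ± 0.08, SE, edgeR adjusted p of 0.00319). Spi1 itself, the transcript of the protein that DB2313 targets, was at -0.15 ± 0.07 (log2 fold change, SE), with 0.206 as its edgeR adjusted p. With the gene length offset it passed, at -0.18 (edgeR adjusted p of 0.0433). Ets2 missed the threshold without control replicate 2 or DB2313 replicate 2 (highest edgeR adjusted p of 0.0593), and Zeb2 without control replicate 1 (0.0571).

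**Figure D5:**
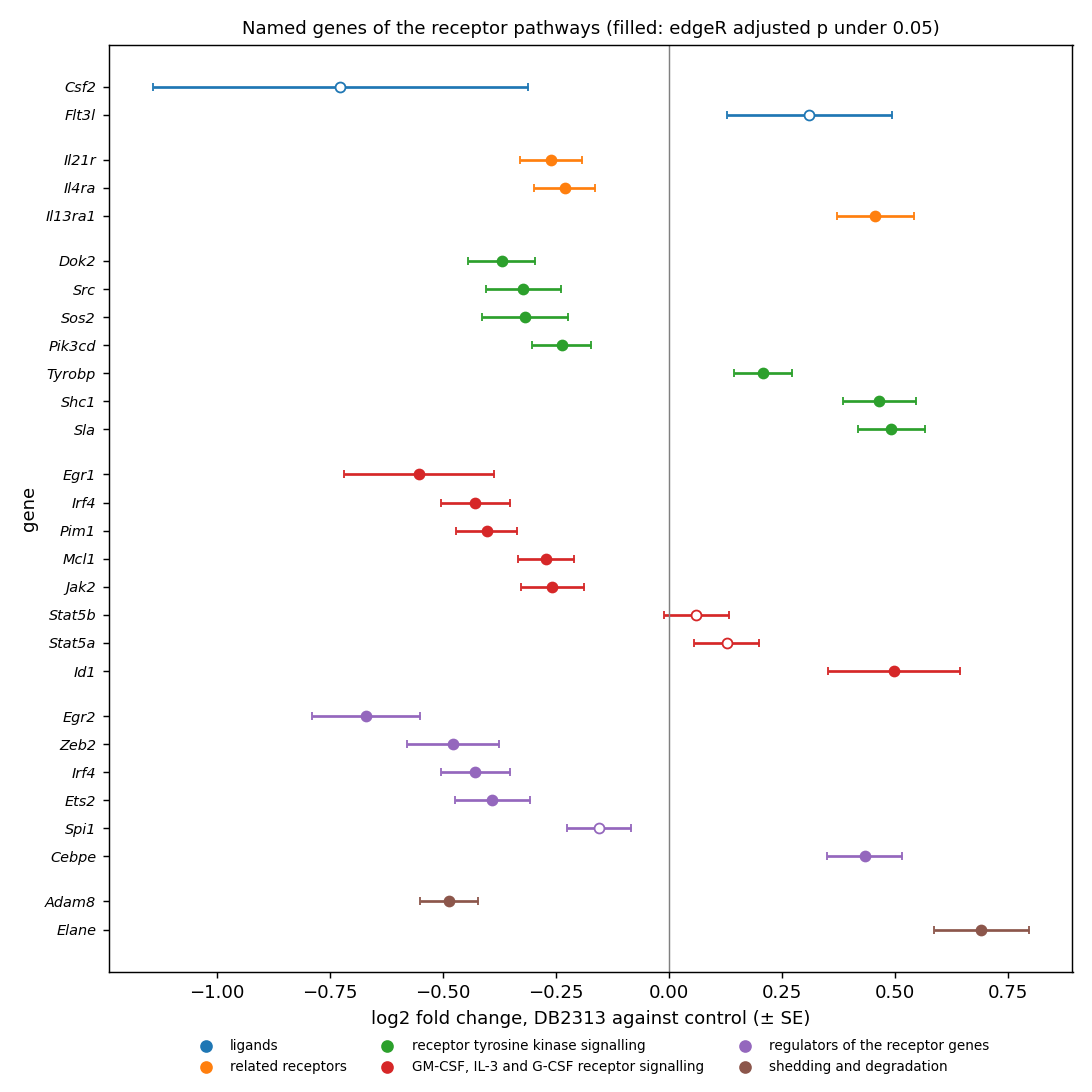
Log2 fold change of DB2313 against control ± SE (horizontal axis) for the named genes of 6 pathway lists, coloured by list and filled at an edgeR adjusted p under 0.05. Most filled genes lie to the left, from Egr2 at -0.67 to Il4ra at -0.23, and Elane at 0.69 lies farthest to the right.

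The 3 called members were also compared library by library. Over the 6 libraries, the Pearson correlation of log2 CPM between Csf1r and Csf2rb2 was 0.945, between Csf2rb2 and Csf3r 0.827 and between Csf1r and Csf3r 0.768, and these values include the difference between the groups. Among 8137 genes of at least 4 log2 CPM, those most like Csf2rb2 were Fmnl2, a formin of the actin cytoskeleton (r = 0.9998), Frmd4a (0.998) and Mib1, a ubiquitin ligase of the Notch pathway (0.997). Those most like Il3ra were Gabarap, an autophagy gene (0.993), Ndufa2, a subunit of respiratory complex I (0.992), and Trmt112 (0.990). With 6 libraries and this many genes, such values describe the pattern only.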

How the data were processed

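The deposited values are whole-number read counts for each gene in 6 libraries, not normalised by the authors, with gene lengths in base pairs. The submitters' processing notes named CASAVA 1.8, HISAT2 2.0.5 and featureCounts 1.5.0-p3, whereas the methods of the study named LifeScope. The genome build, read length, strandedness and treatment of multiply matching reads were not given in the sources used here. Coordinates are as deposited and were read as GRCm38, because 98.3% of the 54409 genes also in GENCODE M21 matched it in position, although Csf1r and Csf2ra, 2 of the 8 members, did not.

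Groups came from the treatment in the labels. Control columns were headed BMDC, which commonly stands for dendritic cells grown from bone marrow, and the others by Spi1, both numbered 1 to 3.

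Counts were tested over all 14174 genes with edgeR 4.0.16 (quasi-likelihood, TMM, filterByExpr, group as the only term) in R 4.3.3, with Benjamini-Hochberg adjustment and a threshold of 0.05. SE are the absolute log2 fold change over the square root of F. The scripts were tested on simulated data. Alternatives were DESeq2 1.42.0 (the tool of the study), its size factors, library totals, other filters, limma-voom (limma 3.58.1), robust edgeR, a prior count of 2, a gene length offset (lowess with a span of 0.3), a block for replicate number, block and offset together, summed beta chains and the omission of each library.

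The members and lists were chosen with earlier results of these data known. Named were all members, the called genes of each list with at least 4 mean log2 CPM (at most 6 by size of change), ligands of members, Spi1, Jak2, Tyrobp, Stat5a and Stat5b, and the 3 genes most like the members with the highest and lowest fold change. Other names were chosen after their values were seen, and 1 gene that the rule named is not reported here. Reads carried no molecular identifiers, and errors cover the spread between 3 libraries per group.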

Additional observations from a re-analysis of the deposited data

How the results depend on the processing

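Csf2rb2 was called lower in each alternative that kept it apart from Csf2rb, and Flt3 passed in none. When each library was omitted in turn, the number of members called lower ranged from 1 to 4, of pathway genes called higher from 6 to 14 and lower from 6 to 26, and of all genes called higher from 328 to 1097 and lower from 411 to 1311. Over all genes, omitting DB2313 replicate 2 gave the fewest calls and omitting replicate 3 the most. Csf1r kept its direction but missed the threshold with library totals (-0.27, edgeR adjusted p of 0.0621), and ranged from -0.40 to -0.22 when 1 library was left out. Csf3r ranged from -0.46 to -0.36, Csf2rb from -0.20 to -0.11, Csf2ra from -0.22 to 0.0051 and Il3ra from -0.068 to 0.16. Csf1 ranged from -0.042 to 0.077 and the log2 ratio of Csf2ra to Csf2rb from -0.11 to 0.19. The summed beta chains were at -0.23 and called, but that sum includes Csf2rb2, which was called by itself. Csf1 turned positive with library totals (0.018), no filter (0.0041) and the gene length offset (0.014). Of 28 named pathway genes, 14 kept their side of the threshold in all alternatives, and all kept their direction. With limma-voom, Egr1, Id1 and Sos2 missed it (adjusted p of 0.0695, 0.0547 and 0.0506). The causes were not tested.

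Replicate numbers were not treated as pairs, with correlations of deviations of 0.0035, -0.024 and -0.12 between same-numbered libraries. With the replicate block, 6 pathway genes were higher and 9 lower, Csf1r was at -0.30 (edgeR adjusted p of 0.0662), and Csf1 was at 0.018 with the gene length offset added.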
